A study of Mus musculus with 4 samples.

Results

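Twist1, Twist2, Prrx1, Prrx2, Snai1, Snai2, Zeb1 and Zeb2 are 8 genes for transcription factors of mesenchyme, the loose, migratory tissue that fills the early embryo between its epithelia. They were taken as a list by name, matched by Ensembl identifier in the 4 gene tables of the series, and make up 8 of the 27514 genes that these tables share. All 8 were present under the same symbol in every table. In build GRCm38.p6 the genes lie on chromosome 12 from 33957671 to 33959831 (Twist1), chromosome 1 from 91801461 to 91848034 (Twist2) and from 163245119 to 163315145 (Prrx1), chromosome 2 from 30845064 to 30881251 (Prrx2), from 167538195 to 167542814 (Snai1) and from 44983512 to 45117442 (Zeb2), chromosome 16 from 14705852 to 14709395 (Snai2) and chromosome 18 from 5591327 to 5775468 (Zeb1).

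The proteins belong to 4 families. Twist1 and Twist2 are basic helix-loop-helix factors that pair with E proteins or with each other, Prrx1 and Prrx2 are paired-related homeodomain factors, and Snai1, Snai2, Zeb1 and Zeb2 are zinc-finger repressors. Snail and Zeb proteins bind E-box motifs in the promoters of epithelial genes such as Cdh1, which encodes E-cadherin, and all these factors are known for their part in epithelial-to-mesenchymal transition (EMT), in which cells give up their junctions and move. In the pharyngeal region, mesenchyme comes from mesoderm and from neural crest, and it later forms connective tissue and skeleton.

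Each of the 4 libraries was a pool of Swiss Webster mouse embryos, with no second library for any group. Ctrl embryos were Tbx1Cre/+;Rosa26-GFPflox/+ and cKO embryos were Tbx1Cre/flox;Rosa26-GFPflox/+, each taken at embryonic day (E) 8.5 as the upper part of the body and at E9.5 as the pharyngeal apparatus with the heart, so stage and dissection changed together. The study's summary of its samples adds the back to the E9.5 tissue, which the labels do not state. Cre was made from the Tbx1 locus, which inactivates that copy, so the Ctrl embryos were already heterozygous for Tbx1, a T-box factor of the pharyngeal apparatus, and the flox copy can be removed only in cells that have made Cre. Live GFP+ cells, meaning cells with a history of Tbx1 expression, were sorted and their transcripts counted from the 3′ end by unique molecular identifiers (UMIs). Genotype, stage and library coincide, so every interval below covers counting error only and no p-value is given.

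The libraries held 1434 (Ctrl E8.5), 1090 (cKO E8.5), 5453 (Ctrl E9.5) and 6266 (cKO E9.5) cells, with a median of 15887.5 to 23883 UMIs per cell and 99.4 to 99.9% of UMIs in shared genes. Tbx1 was at 86.4 (Ctrl) and 118 (cKO) UMIs per 1000000 UMIs of shared genes (UPM, the level used throughout) at E8.5 and at 103 and 134 at E9.5, not lower in the libraries labelled cKO, but reads of the 3′ end do not test whether the floxed part was removed. The cKO E9.5 library was counted on a gene table of 31053 genes and the others on one of 27998, so at E9.5 genotype, library and gene table cannot be told apart. Pairs of libraries shared 2 to 55 cell barcodes.

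Cells were placed in groups by marker genes that exclude the 8 factors, with the least number of markers set after seeing the cells. The mesenchyme group required 2 of Pdgfra, Col1a1, Col1a2, Col3a1 and Lum and held 351 (Ctrl E8.5), 374 (cKO E8.5), 2758 (Ctrl E9.5) and 3920 (cKO E9.5) cells, or 24.5, 34.3, 50.6 and 62.6% of each library. Its summed marker level was 409, 366, 892 and 761 UPM, against 38.1 to 137 in the other gated groups of the Ctrl libraries, while neural crest markers summed to 2.77 to 5.47 and Foxd3 was at 0 in 3 of the 4 mesenchyme groups. The other groups were the multilineage progenitor (MLP, all of Arg1, Rdh10, Vamp8 and Isl1), branchiomeric muscle (BrM), anterior second heart field or somatic mesoderm (aSHF/SoM), cardiomyocyte and endothelial groups, with epithelial, neural and posterior second heart field (pSHF) groups at E9.5 only, where they held at least 20 cells. From 11.6 to 49% of cells passed no gate. No doublet caller was run, and cells that passed several gates were set aside.

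At E9.5, 7 of the 8 factors were far lower in the epithelial group than in mesenchyme, and Prrx2 was the exception. In Ctrl E9.5 the fold of mesenchyme over epithelium was 22.2 (95% interval 17.8 to 28.1) for Twist1, 15.6 (12.1 to 20.5) for Twist2, 12.9 (10.6 to 15.7) for Prrx1, 14.7 (11.6 to 18.9) for Snai1, 14.6 (10.3 to 21.6) for Zeb1, 16.7 (12.3 to 23.5) for Zeb2, 3.98 (3.11 to 5.15) for Snai2 and 1.35 (1.30 to 1.40) for Prrx2. Cdh1 ran the other way, with 27.5 UPM in the Ctrl E9.5 epithelial group and 0.179 in mesenchyme. The epithelial groups held 650 Ctrl and 176 cKO cells.

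**Figure D1:**
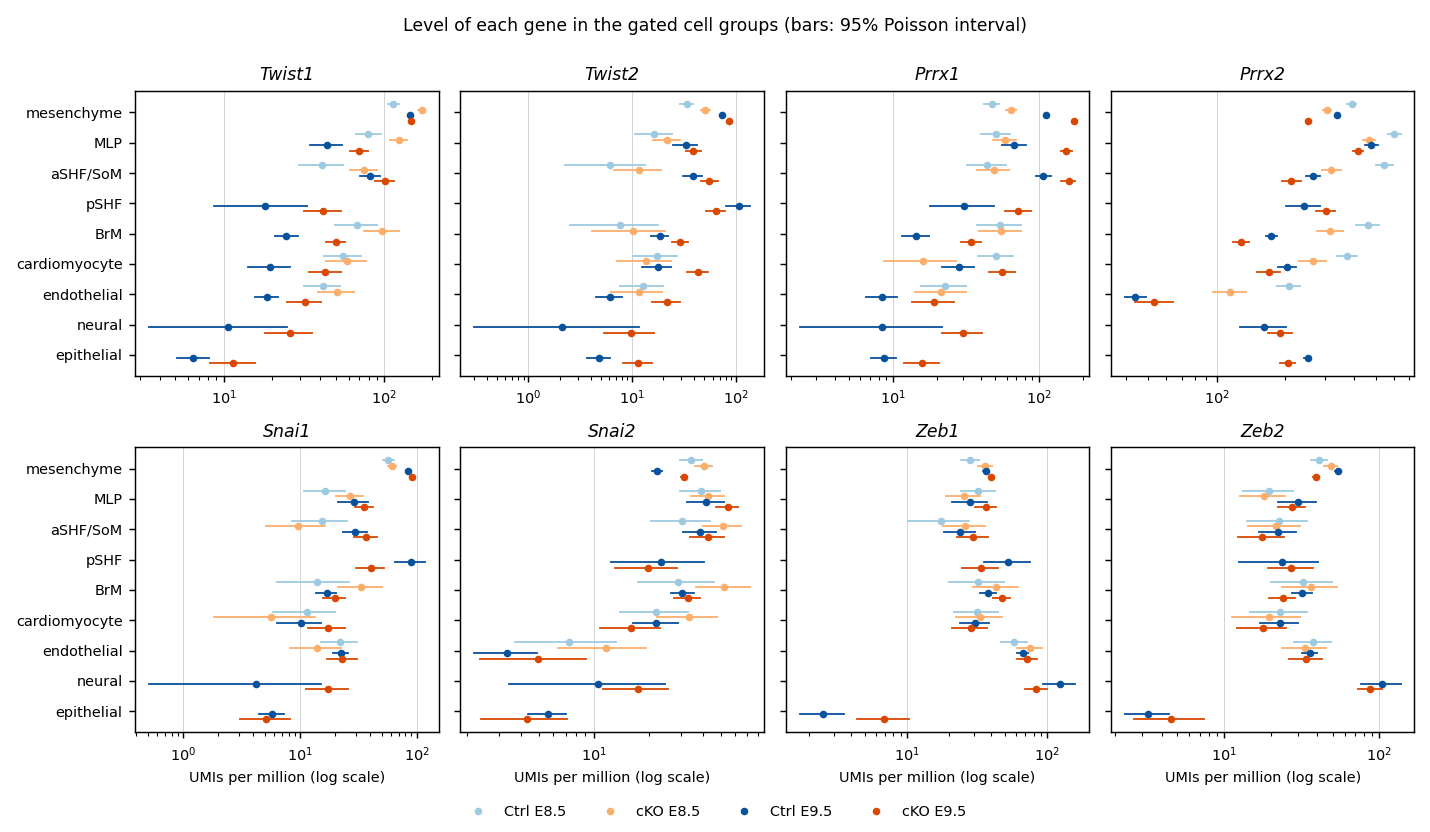
Level of each gene in UPM (x axis, log scale, a separate range for each gene) in every gated cell group with at least 20 cells (y axis). Points are the 4 libraries and bars are 95% Poisson intervals, drawn from 0.3 where they start lower; 7 genes are low in the epithelial group, and Prrx2 is at 251 (Ctrl) and 205 (cKO) there.

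Twist1, which controls cranial mesenchyme and its skeleton, was highest in mesenchyme in all 4 libraries. Its mesenchyme level was 114 (Ctrl E8.5), 171 (cKO E8.5), 144 (Ctrl E9.5) and 147 UPM (cKO E9.5). The next gated group in each library was separated from it by an interval that did not reach a ratio of 1. That next group was MLP at E8.5, with 79.9 (Ctrl) and 123 UPM (cKO), and aSHF/SoM at E9.5, with 81.8 and 101 UPM. Below these, the BrM, cardiomyocyte, endothelial and pSHF groups of Ctrl E9.5 lay at 18.1 to 24.6 UPM, with no neighbours in that order separated. Twist1 in epithelium was 6.48 (Ctrl) and 11.5 UPM (cKO). Cells that passed no gate held 98.6 (Ctrl E8.5), 133 (cKO E8.5), 84.3 (Ctrl E9.5) and 82.5 UPM (cKO E9.5). The fold of mesenchyme over them was 1.16 (1.05 to 1.27) and 1.28 (1.18 to 1.39) at E8.5. At E9.5 that fold was 1.71 (1.59 to 1.84) and 1.78 (1.68 to 1.89).

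Twist2, a dermal and mesenchymal relative of Twist1, was lower at E8.5 than at E9.5 in mesenchyme, with 33.7, 51.2, 74.6 and 86.1 UPM in Ctrl E8.5, cKO E8.5, Ctrl E9.5 and cKO E9.5. In Ctrl E9.5 it was highest outside mesenchyme, in the 30 cells of the pSHF group, at 107 UPM (81.3 to 138) from 59 UMIs. In cKO E9.5 the order turned, with mesenchyme first and pSHF at 64.4 UPM (51.7 to 79.4). The BrM groups lay at 7.70 to 29.4 UPM.

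Prrx1, a homeobox gene of limb and craniofacial mesenchyme, did not stand out in mesenchyme at E8.5. In Ctrl E8.5 the BrM, cardiomyocyte, MLP, mesenchyme and aSHF/SoM groups lay between 44.0 and 53.9 UPM, with no neighbours in that order separated. The endothelial group was lower at 22.7. In cKO E8.5 mesenchyme led the gated groups at 64.3 UPM but was not separated from MLP at 58.2. Cells that passed no gate held 49.3 (Ctrl) and 68.5 UPM (cKO) at that stage. At E9.5 it was highest in mesenchyme and in aSHF/SoM, at 111 and 107 UPM in Ctrl and 173 and 159 UPM in cKO, and these groups did not differ beyond their counting error. In cKO the MLP group, at 154 UPM, was not separated from aSHF/SoM either. In BrM, the jaw and facial muscle lineage, it was 53.9 and 55.2 UPM at E8.5 but 14.4 and 34.4 UPM at E9.5 (Ctrl and cKO). The spread between groups therefore opened between the stages, from 22.7 to 53.9 UPM in Ctrl E8.5 to 8.43 to 111 UPM in Ctrl E9.5. The E9.5 range also covers 3 groups that had too few cells at E8.5, but these lay inside it, at 8.46 to 30.8 UPM.

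Prrx2 had another distribution. It was highest in the MLP group of all 4 libraries, at 604, 467, 479 and 417 UPM, and mesenchyme lay below at 392, 305, 339 and 253 UPM (Ctrl E8.5, cKO E8.5, Ctrl E9.5 and cKO E9.5). MLP was separated from the next gated group in each library except Ctrl E8.5, where aSHF/SoM reached 546 UPM. The epithelial group of Ctrl E9.5, at 251 UPM, was not separated from aSHF/SoM at 265 or pSHF at 241. The endothelial group was lowest, at 207 and 114 UPM at E8.5 and 43.9 and 53.1 UPM at E9.5.

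Snai1, the first Snail repressor switched on when mesoderm leaves an epithelium, was highest in mesenchyme at E8.5, with 57.2 (Ctrl) and 61.5 UPM (cKO) against 5.72 to 33.4 in the other gated groups of both libraries. The fold of E8.5 mesenchyme over cells that passed no gate was 1.47 (1.27 to 1.69) in Ctrl and 1.63 (1.4 to 1.89) in cKO. At E9.5 mesenchyme held 84.5 and 90.4 UPM. The pSHF group stood beside it in Ctrl, at 88.7 UPM (65.6 to 117), and below it in cKO, at 40.3 UPM (30.3 to 52.4). Snai2, known for its expression in neural crest, was not highest in mesenchyme in any library: mesenchyme had 34.4, 40.2, 22.2 and 31.3 UPM, and MLP 38.7, 42.5, 41.6 and 54.4 UPM. At E8.5 mesenchyme and MLP were not separated, with folds of 0.889 (0.666 to 1.2) in Ctrl and 0.945 (0.75 to 1.2) in cKO. In cKO E8.5 the highest groups were BrM at 52.3 and aSHF/SoM at 51.1 UPM. The lowest Snai2 groups were the endothelial cells, at 7.35, 11.6, 3.35 and 4.92 UPM, and the E9.5 epithelium, at 5.59 and 4.31 UPM.

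Neural cells at E9.5 held more Zeb1 and Zeb2 than mesenchyme did, and endothelial cells held more Zeb1 than mesenchyme in all 4 libraries. Zeb1 was highest in endothelial cells at E8.5, with 58.2 (Ctrl) and 75.3 UPM (cKO), and in neural cells at E9.5, with 123 (93.1 to 159) and 83.7 UPM (69.4 to 100), followed by endothelial cells with 66.8 and 72.3 UPM, which in cKO were within the counting interval of the neural cells. Mesenchyme had 28.1, 36.2, 36.7 and 39.7 UPM, and its fold over endothelium at E9.5 was 0.55 in both libraries. Zeb2, whose product acts in neural and neural crest development, was at 104 and 87.1 UPM in neural cells at E9.5, and at 40.9, 48.9, 54.2 and 39.2 UPM in mesenchyme. At E8.5, where no neural group was described, mesenchyme was above endothelium in cKO, with a fold of 1.48 (1.07 to 2.1), and within counting error of it in Ctrl. The neural groups rest on 26 Ctrl and 72 cKO cells, and the epithelial level was at most 6.90 UPM for Zeb1 and 4.60 UPM for Zeb2.

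The share of cells with a UMI gave the same split between tissues. Each cell was thinned to 10000 UMIs, shallower cells being left out, which kept 2452 mesenchyme and 615 epithelial cells of Ctrl E9.5. Twist1 was seen in 70.8% (69.0 to 72.6, exact binomial interval) of the mesenchyme cells and 2.76% (1.62 to 4.39) of the epithelial ones, and without thinning in 80.0 and 6.46%. The epithelium gave 2.28 to 5.53% for the other genes except Prrx2, against 18.2% (Snai2) to 56.2% (Prrx1) in mesenchyme. Shares at that level were read as background, on the assumption that epithelium lacks these genes. That assumption was not tested, and Prrx2 does not meet it. Prrx2 was seen in 81.0% of epithelial and 89.4% of mesenchyme cells.

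Single mesenchyme cells carried several of the factors. After thinning, 4 or more of the 8 were seen in 48.6, 60.2, 64.6 and 70.0% of mesenchyme cells (Ctrl E8.5, cKO E8.5, Ctrl E9.5 and cKO E9.5), against 1.30 and 1.76% of the E9.5 epithelial cells. In MLP cells the shares were 29.9, 32.0, 28.4 and 49.7%. Over all cells of each library they were 34.9, 42.4, 40.5 and 57%. Cells that passed no gate gave 35.4, 46.7, 42.2 and 48.6%. A cell with all 8 was rare even in mesenchyme, at 0.326% or less.

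Inside mesenchyme the paired genes of a family were seen together about as often as their single shares give. Twist1 and Twist2 were both seen in 34.4% (32.5 to 36.3) of Ctrl E9.5 mesenchyme cells, where the product of the single shares is 35.5%, and Snai1 and Snai2 in 9.5% (8.37 to 10.7), where it is 8.74%. Over 5 pairs and 4 libraries the product lay inside the interval in 19 of 20 cases. The remaining case was Twist1 with Prrx1 in Ctrl E9.5, at 42.0% (40.0 to 44.0) beside a product of 39.8%. The interval is that of the joint share alone, so a product inside it does not show that 2 genes were independent. Prrx2 was seen in 83.3 to 96.4% of mesenchyme cells, so its joint share with Prrx1 was largely set by the share of Prrx1. Over all cells of a library, where groups with and without the factors are mixed, only 8 of 20 products lay inside, and the other 12 were below the observed share.

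**Figure D2:**
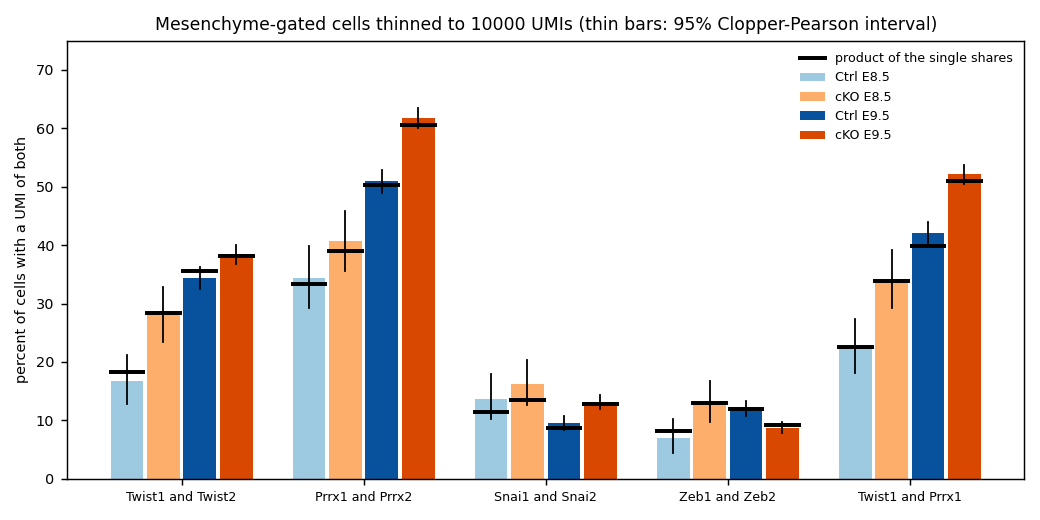
Percent of thinned mesenchyme-gated cells with a UMI of both genes of a pair (y axis) for 5 pairs (x axis) in the 4 libraries. Bars start at 0, black lines are 95% exact binomial intervals and short horizontal marks are the product of the single shares, which lies inside the interval in 19 of 20 cases.

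Mesenchyme was then divided by regional markers, without naming the parts as cell types, since a cell can carry several of them. Cells with a UMI of Zic1 or Msx1 (80, 57, 655 and 1194 cells) had the highest Twist1 at E9.5, 192 UPM in both libraries, and the highest Prrx1 of the marked cells, 168 (Ctrl) and 204 UPM (cKO). Cells with a UMI of Foxf2 or Foxl1 (65, 94, 717 and 800 cells) had the lowest Prrx1, 58.1 and 108 UPM, and the highest Twist2, 107 and 109 UPM. Zeb2 was also highest there, with 70.1 UPM in Foxf2 or Foxl1 cells against 37.9 UPM in Zic1 or Msx1 cells of Ctrl E9.5. A further part held cells with UMIs of any pair among Tcf15, Meox1 and Foxc2, genes known from somites among other places. These cells were 56.4 and 70.1% of mesenchyme at E8.5 and 26.9 and 30.8% at E9.5. Their Prrx1 was 87.4 and 155 UPM at E9.5. Zeb1 differed least, at 36.7 to 41.2 UPM over all marked parts of Ctrl E9.5.

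**Figure D3:**
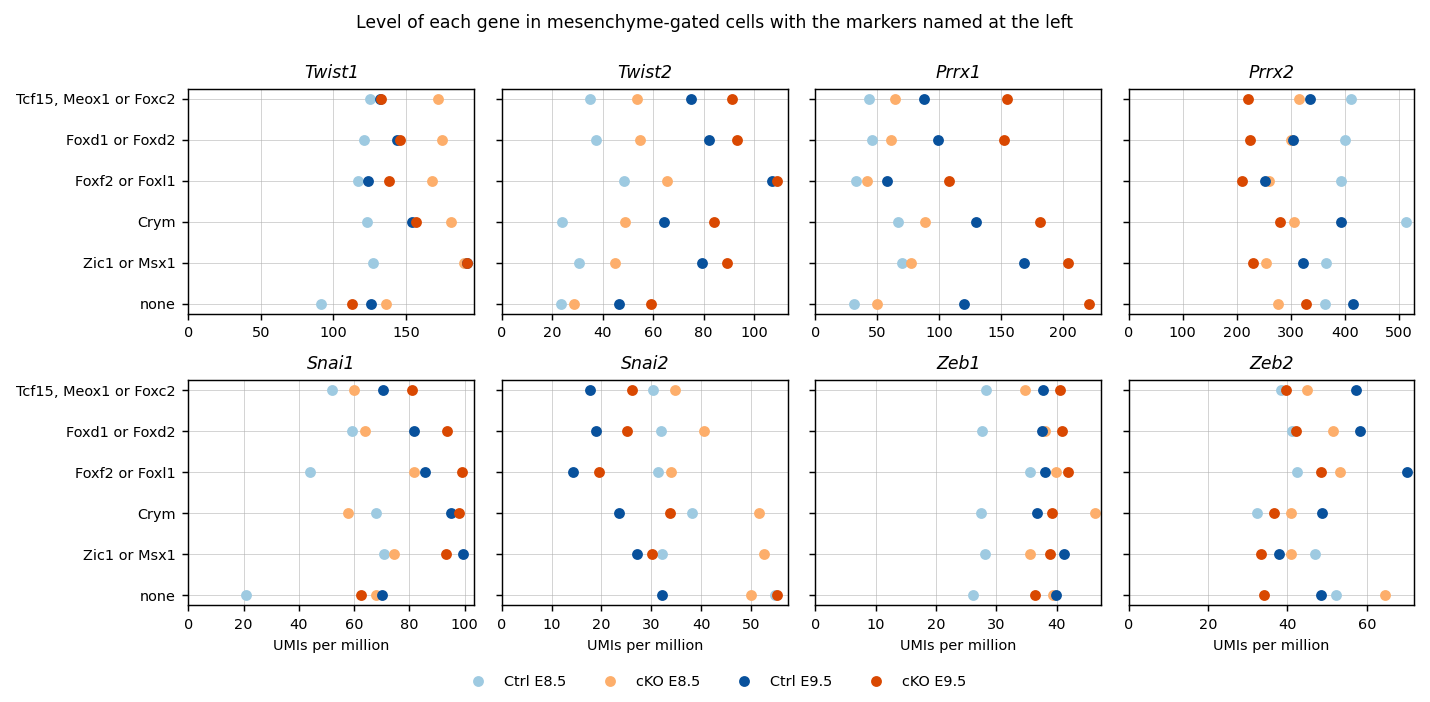
Level of each gene in UPM (x axis, from 0) in mesenchyme-gated cells of the regional parts named at the left or of none of them (y axis). The part labelled Tcf15, Meox1 or Foxc2 needed UMIs of any pair of these genes. Cells of no part can therefore hold a single gene of them. Points are the 4 libraries; Prrx1 in Ctrl E9.5 runs from 58.1 with Foxf2 or Foxl1 to 168 with Zic1 or Msx1.

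The comparison of cKO with Ctrl asks how the factors differ where the remaining Tbx1 copy was floxed. In E9.5 mesenchyme, Prrx1 and Snai2 were higher in the library labelled cKO, Prrx2 and Zeb2 were lower, and Twist1 was level. Prrx1 was 111 UPM (108 to 115) in Ctrl and 173 UPM (170 to 177) in cKO. The log2 ratio was therefore 0.64 (0.59 to 0.69). Snai2 was 22.2 and 31.3 UPM, a log2 ratio of 0.50 (0.39 to 0.61). Prrx2 was 339 and 253 UPM, a log2 ratio of -0.42 (-0.45 to -0.39), and Zeb2 was 54.2 and 39.2 UPM, a log2 ratio of -0.47 (-0.55 to -0.38). Twist1 was at 0.03 (-0.02 to 0.07), Twist2 at 0.21, Snai1 at 0.10 and Zeb1 at 0.11.

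These values are relative to other genes of the same cells, and the centre of all genes was not at 0. The median log2 ratio over 12388 genes with at least 50 UMIs was -0.20, and TMM scaling added 0.21 to each ratio. Only Prrx1 passed the fold of 1.5 used to count genes, 1 of 8 higher and 0 lower, where 6.57% of all genes were higher and 17.2% lower by this fold. With TMM scaling 2 were higher, and relative to all other cells 0 were higher and 2 lower. The median of the 8 was 0.10. Prrx1 was also higher in the rest of the cKO E9.5 library: in all other cells together its log2 ratio was 1.64, and relative to them the mesenchyme value was -1.0, so the direction turned. The epithelial share of the library was 11.9% in Ctrl and 2.81% in cKO, and its part in that turn was not tested. The thinned share of mesenchyme cells with a Prrx1 UMI was 56.2% in Ctrl and 72.7% in cKO.

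The Prrx1 difference varied among the regional parts of E9.5 mesenchyme. Its log2 ratio was 0.28 (0.21 to 0.36) in Zic1 or Msx1 cells and 0.48 (0.41 to 0.55) in Crym cells. In Foxd1 or Foxd2 cells it was 0.62 (0.56 to 0.68), and in Foxf2 or Foxl1 cells 0.90 (0.77 to 1.03). Cells with any pair of Tcf15, Meox1 and Foxc2 gave a Prrx1 ratio of 0.83 (0.73 to 0.93). In cells of none of these parts, which can hold a single gene of Tcf15, Meox1 and Foxc2, it was 0.88 (0.69 to 1.08). The ratio was thus above 0 in all 6 parts. Zic1 or Msx1 cells made up 23.7% of mesenchyme in Ctrl and 30.5% in cKO. Snai2 was at 0.15 (-0.05 to 0.34) in Zic1 or Msx1 cells and at 0.42 to 0.56 in the other 4 marked parts. It was at 0.79 (0.41 to 1.18) in cells of none of these parts.

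In the muscle and progenitor groups of E9.5 the Twist1 and Prrx1 ratios were larger than in mesenchyme. In BrM, Twist1 was 24.6 UPM (20.8 to 28.9) in Ctrl and 49.9 UPM (43.5 to 56.9) in cKO. The log2 ratio was therefore 1.02 (0.71 to 1.33). Prrx1 was at 1.26 (0.87 to 1.66) and Twist2 at 0.67 (0.29 to 1.04) there, while Prrx2 was at -0.44 (-0.59 to -0.29) and Zeb2 at -0.42 (-0.77 to -0.07). Twist1, Prrx1 and Twist2 were the 3 genes past the fold upward and 0 passed it downward, beside 4.29% of all genes higher and 23.9% lower. Relative to all other cells 1 was higher and 1 lower, and with thinned cells 1 was lower. The summed mesenchyme markers were at 106 and 144 UPM in the same BrM cells, a log2 ratio of 0.45 (0.29 to 0.61), with none of the 5 markers at 0, and their part in the result was not tested.

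In MLP, the progenitor group, Prrx1 was 67.5 UPM (55.9 to 80.9) in Ctrl and 154 UPM (142 to 167) in cKO at E9.5. These levels give a log2 ratio of 1.19 (0.90 to 1.49), and Twist1 was at 0.67 (0.29 to 1.06). The thinned share of MLP cells with a Prrx1 UMI was 45.3% and 64.0%. These were the 2 genes past the fold, with 0 lower, beside 4.73% of all genes higher and 21.8% lower. With TMM scaling 4 genes passed it upward, and relative to all other cells 0 did. Mesenchyme markers summed to 125 (Ctrl) and 158 UPM (cKO) in these cells, none of the 5 at 0, and their part in the result was not tested.

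In the E9.5 epithelial group, 4 of the 8 were over 1.5-fold higher in cKO and 0 lower, beside 4.06% of all genes higher and 18.5% lower. They were Twist1, Twist2, Prrx1 and Zeb1, at levels of 2.51 to 8.66 UPM in Ctrl and 6.90 to 15.8 UPM in cKO. Their shares of Ctrl cells were those read above as background. Twist2 rested on 59 and 40 UMIs and Zeb1 on 31 and 24. With 1 more marker asked of each gate, 2 genes were higher and 1 was lower, and Prrx1 was at -0.05. Relative to all other cells 3 were higher and 1 lower. Mesenchyme markers summed to 62.5 and 76.5 UPM in these cells, none of the 5 at 0, and Meox1, a somite gene, was at 16.6 and 66.4 UPM. Their part in the result was not tested.

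The remaining E9.5 groups differed among the genes. Prrx1 was higher in cKO in every gated group, at log2 ratios from 0.57 (0.33 to 0.80) in aSHF/SoM to 1.83 (0.37 to 3.77) in neural cells, where Ctrl had only 4 UMIs in 26 cells and a share of thinned cells at the background level. Relative to all other cells it turned in aSHF/SoM (-0.51), cardiomyocytes (-0.06), epithelium (-0.05) and mesenchyme. In endothelial cells Twist2 was 6.07 and 21.6 UPM, a log2 ratio of 1.83 (1.21 to 2.45). In pSHF, Twist2 was lower in cKO at -0.73 (-1.22 to -0.23) and so was Snai1 at -1.14 (-1.72 to -0.55), from 59 and 49 UMIs in Ctrl and 88 and 55 in cKO. Mesenchyme markers in these groups were higher in cKO in endothelial cells (log2 ratio 0.53), cardiomyocytes (0.56), aSHF/SoM (0.39) and pSHF (0.58) and lower in neural cells (-0.47), and their part was not tested.

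**Figure D4:**
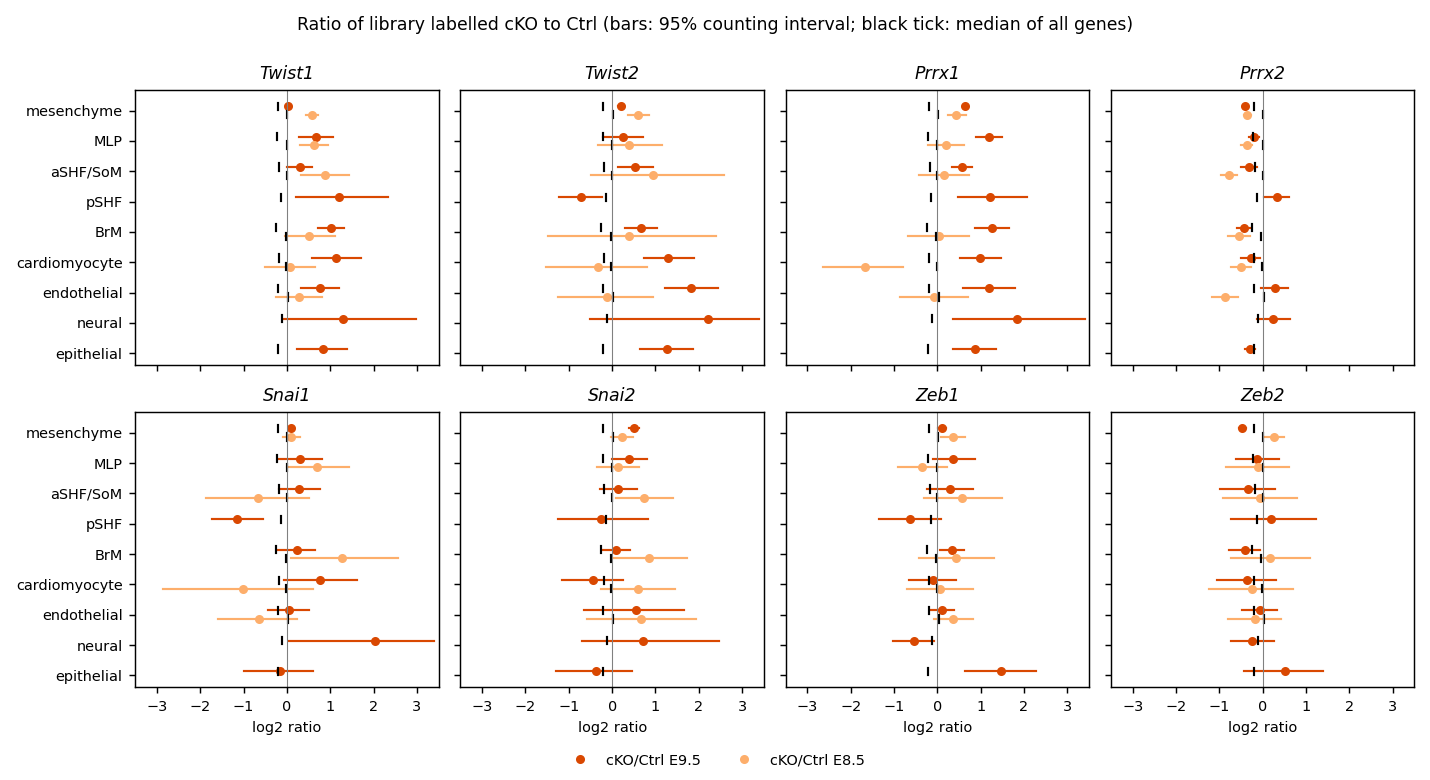
Log2 ratio of the library labelled cKO to Ctrl for each gene (x axis) by cell group (y axis), at E9.5 and E8.5. Points are the ratios, bars are 95% counting intervals cut at the axis edge, and black ticks are the median of all genes in that comparison; at E9.5 Prrx1 lies above 0 in each group, from 0.57 to 1.83, but not in 4 of them once the ratio of all other cells is subtracted.

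At E8.5, where both libraries used the same gene table, Twist1, Twist2 and Prrx1 were higher in the cKO mesenchyme and Prrx2 was lower. The study lists a slightly higher range of somites for the cKO embryos of that stage than for Ctrl. Age and genotype therefore cannot be told apart there. Twist1 was 114 UPM (106 to 123) in Ctrl and 171 UPM (162 to 179) in cKO. The log2 ratio was therefore 0.58 (0.45 to 0.71). Twist2 was at 0.60 (0.36 to 0.84), Prrx1 at 0.44 (0.24 to 0.65), Zeb1 at 0.36 (0.09 to 0.63), Zeb2 at 0.26 (0.03 to 0.48) and Prrx2 at -0.36 (-0.44 to -0.28). The intervals for Snai1 and Snai2 held 0. By the fold of 1.5, Twist2 was the 1 gene of 8 higher and 0 were lower, beside 6.05% of all genes higher and 3.33% lower, and the all-gene median was 0.01. Relative to all other cells of these libraries the ratio was 0.25 for Twist1 and 0.23 for Twist2, and 0 genes were higher by the fold. The cells of the cKO library were the deeper ones, with a median of 23507 UMIs in mesenchyme against 16617 in Ctrl.

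Prrx2 was lower in cKO in each of the 6 gated groups at E8.5. Its log2 ratio was -0.86 in endothelial cells, -0.77 in aSHF/SoM, -0.55 in BrM, -0.50 in cardiomyocytes, -0.37 in MLP and -0.36 in mesenchyme, each with an interval below 0. At E9.5 it was below 0, with its interval, in mesenchyme, BrM, MLP, aSHF/SoM, cardiomyocytes and epithelium, where all-gene medians lay at -0.25 to -0.18. In pSHF Prrx2 was above 0, at 0.32 (0.04 to 0.61), and in neural cells it was 161 (Ctrl) and 190 UPM (cKO). With TMM scaling the MLP value at E9.5 was 0.05, and relative to all other cells the E8.5 values of mesenchyme and MLP were both 0.08, so the direction depends on the reference there. At E8.5 mesenchyme markers were at -1.36 in endothelial cells, and endothelial markers were at -0.98 in cardiomyocytes, -0.93 in MLP, -0.41 in aSHF/SoM and -0.39 in mesenchyme, and their part was not tested.

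Between the stages, the members of the Twist, Prrx and Snai pairs differed from each other in Ctrl mesenchyme, while Zeb1 and Zeb2 were close. Prrx1 was 47.3 UPM (42.1 to 53.0) at E8.5 and 111 UPM (108 to 115) a day later (log2 ratio 1.23), while Prrx2 was 392 and 339 UPM (-0.21). Twist2 was at 1.14 and Twist1 at 0.33, and Snai1 was at 0.56 and Snai2 at -0.63. Zeb1 was 28.1 and 36.7 UPM (0.38) and Zeb2 was 40.9 and 54.2 UPM (0.40). By the fold of 1.5, 2 genes (Prrx1 and Twist2) were higher and 1 (Snai2) was lower at E9.5, beside 31.2% of all genes higher and 7.28% lower. The all-gene median was 0.31 and that of the 8 was 0.39. Relative to all other cells, 6 were higher and 0 lower, with Prrx2 at 0.70 and Snai2 at 0.07, so both turned. In cKO mesenchyme Prrx1 was at 1.43 and Twist2 at 0.75, and Twist1 was at -0.22 and Zeb2 at -0.32. The dissection also differed between the stages, and its part cannot be told apart from that of age.

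Outside mesenchyme, Twist1 and Prrx1 differed in direction between groups. In BrM, Twist1 was 67.7 UPM at E8.5 and 24.6 UPM at E9.5 in Ctrl, a ratio of -1.46 on the log2 scale (-1.95 to -0.94), and 97.2 and 49.9 UPM in cKO, a ratio of -0.96 (-1.36 to -0.55). Prrx1 in BrM was at -1.91 (-2.49 to -1.30) in Ctrl and -0.68 (-1.20 to -0.13) in cKO. In aSHF/SoM both genes were higher at the later stage, Twist1 by 1.0 (0.50 to 1.53) and 0.43 (0.08 to 0.79) and Prrx1 by 1.29 (0.82 to 1.79) and 1.70 (1.32 to 2.11). The BrM values rest on 33 and 26 cells at E8.5.

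In MLP the Twist genes separated, with Twist1 at -0.86 (-1.29 to -0.44) and -0.82 (-1.07 to -0.57) and Twist2 at 1.0 (0.30 to 1.73) and 0.85 (0.36 to 1.35) in Ctrl and cKO. Relative to all other cells of Ctrl, Twist2 in MLP was at -0.15, so its direction turned there. Prrx2 was lower at E9.5 in endothelial cells, at -2.24 (-2.46 to -2.02) and -1.10 (-1.48 to -0.73), and in BrM, at -1.41 (-1.59 to -1.22) and -1.31 (-1.53 to -1.07). Mesenchyme markers in the same comparison were higher at E9.5 in BrM, at 1.29 (Ctrl) and 1.63 (cKO), in aSHF/SoM, at 1.64 and 1.85, in endothelial cells, at 0.77 and 2.65, and in MLP, at 0.46 and 1.02, and their part was not tested.

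**Figure D5:**
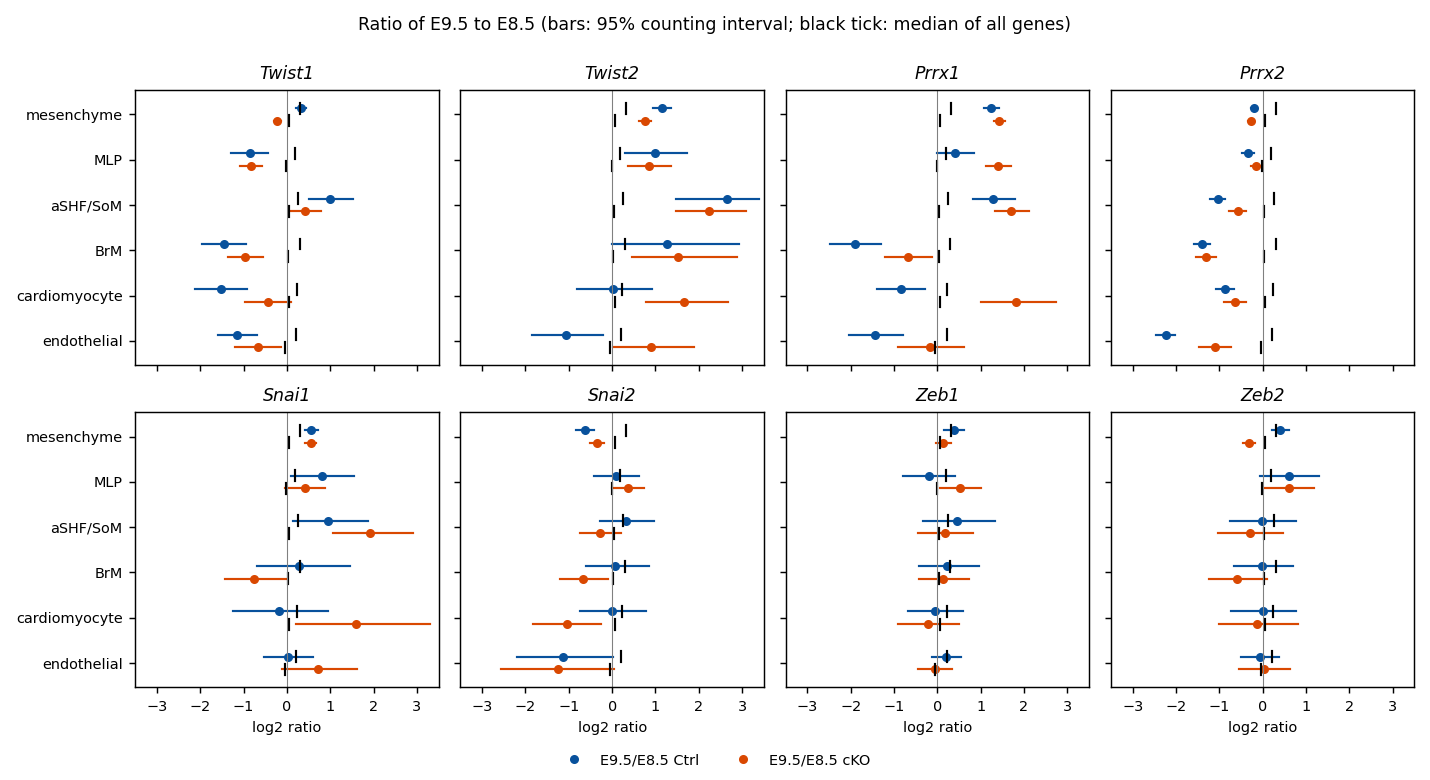
Log2 ratio of E9.5 to E8.5 for each gene (x axis) in the 6 groups present at both stages (y axis), in Ctrl and cKO. Points are the ratios, bars are 95% counting intervals cut at the axis edge, and black ticks are the all-gene medians; in mesenchyme Prrx1 is at 1.23 and 1.43 and Prrx2 is below 0 in both.

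The other genes of the EMT pathway are given from lists, each gene counted if it had at least 50 UMIs over both libraries. In E9.5 mesenchyme, the partners of Twist proteins (E proteins, Id proteins and Hand factors) gave 1 higher and 1 lower of 8, with a median log2 ratio of -0.01. The higher gene was Hand2, a gate gene, and without it 0 were higher and 1 lower of 7. The 4 with the most UMIs were Tcf3, an E protein, at 197 UPM in Ctrl and 140 in cKO, and the Id proteins, which hold E proteins away from DNA: Id1 at 273 and 381, Id2 at 397 and 460, and Id3 at 623 and 678 UPM. Mesenchymal effectors gave 3 higher and 1 lower of 12 (median -0.23). Fibronectin (Fn1) was at 110 and 60.3 UPM, galectin-1 (Lgals1) at 396 and 615, vimentin (Vim) at 234 and 201, and the matrix protein gene Sparc at 133 and 113. EMT-inducing signals gave 0 higher and 4 lower of 11 (median -0.42), with Tgfb2 at 11.4 and 7.92 UPM, Tgfbr1 at 31.9 and 31.3, Bmp4 at 30.0 and 23.6 and Fgf8 at 2.26 and 1.46. Fgf10, 1 of the 11, is also a gate gene, and without it 0 were higher and 3 lower of 10. All-gene background for these counts is the 6.57% higher and 17.2% lower given above.

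Other homeobox and helix-loop-helix genes of mesenchyme gave 4 higher and 2 lower of 11 in E9.5 mesenchyme. Of the 6 used neither in a gate nor as a regional marker, 3 were higher and 2 lower. Meox1 and Tcf15, of somites, were at 48.4 and 99.1 UPM and at 18.1 and 23.2 UPM, Msx1 at 30.0 and 43.2, and Tcf21, of head muscle and epicardium, at 3.14 and 4.41. The further Snail relatives Snai3, Scrt1 and Scrt2 had too few UMIs to be counted. Of the regulators that hold the epithelial state, 2 of 9 had enough UMIs in mesenchyme, and 1 of these was lower. In the E9.5 epithelial group the 4 with the most UMIs were at 50.9 (Ctrl) and 35.4 UPM (cKO) for Esrp1, 15.1 and 17.5 for Grhl2, 6.4 and 7.19 for Klf4 and 4.61 and 3.74 for Elf3.

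Epithelial adhesion genes that EMT factors repress were nearly absent from mesenchyme and were compared in the E9.5 epithelial group. All 10 had enough UMIs, 0 were higher and 6 were lower in cKO, and their median log2 ratio was -0.67 beside -0.21 for all genes. Keratin genes Krt18 and Krt8 were at 406 and 222 UPM in Ctrl and 212 and 129 UPM in cKO. Cldn4, of tight junctions, was at 91.5 and 57.0 UPM, and Crb3, of apical polarity, at 55.7 and 46.6 UPM. Background for these counts is the 4.06% higher and 18.5% lower of all genes in that group. TMM scaling would add 0.15 to each of these ratios. Gate markers of the epithelial group were also lower, with 1170 (Ctrl) and 1048 UPM (cKO), or -0.16 (-0.21 to -0.11) as log2. Only 176 cKO cells stood beside 650 Ctrl cells, and whether both libraries held the same kinds of epithelium was not tested. Any link between the adhesion genes and the 8 factors was not tested either.

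The E-box CAGGTG, with its reverse complement CACCTG, is the motif that Snail and Zeb proteins are known to bind, and it was searched in the 250 bases before each RefSeq start in GRCm38.p6. Of 32851 such windows 17.2% held it, and of 27025 genes 19.4%. In the adhesion list 6 of the 8 genes with an entry held it (75%), among them Crb3, Cldn4 and Krt8. Cdh1 and Pkp3 were not matched. Among the 8 factors, 6 were matched and 1, Snai1, held it. A match is a run of letters and not a bound site. The windows of Crb3 (chr17:57061951-57062200, plus strand), Cldn4 (chr5:134946935-134947184, minus strand), Krt8 (chr15:102004343-102004592, minus strand) and Snai1 (chr2:167537945-167538194, plus strand) are shown because they set epithelial genes beside the single factor gene with the motif. They read 5′ to 3′ and end at the base before the start, with each E-box in capitals.
Crb3: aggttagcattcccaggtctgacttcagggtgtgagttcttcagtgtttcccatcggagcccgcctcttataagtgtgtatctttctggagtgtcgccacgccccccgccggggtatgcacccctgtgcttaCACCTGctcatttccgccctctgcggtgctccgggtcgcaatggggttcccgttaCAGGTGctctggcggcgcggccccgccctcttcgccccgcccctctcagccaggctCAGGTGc
Cldn4: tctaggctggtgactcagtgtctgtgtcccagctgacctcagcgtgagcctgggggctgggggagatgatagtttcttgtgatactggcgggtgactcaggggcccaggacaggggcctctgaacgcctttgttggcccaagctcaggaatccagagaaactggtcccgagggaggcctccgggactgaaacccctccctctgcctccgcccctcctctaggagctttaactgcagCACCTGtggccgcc
Krt8: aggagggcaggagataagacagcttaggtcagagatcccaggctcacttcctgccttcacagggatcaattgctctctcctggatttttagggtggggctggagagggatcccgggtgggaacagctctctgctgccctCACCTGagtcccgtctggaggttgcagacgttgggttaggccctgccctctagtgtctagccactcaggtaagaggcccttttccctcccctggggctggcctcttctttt
Snai1: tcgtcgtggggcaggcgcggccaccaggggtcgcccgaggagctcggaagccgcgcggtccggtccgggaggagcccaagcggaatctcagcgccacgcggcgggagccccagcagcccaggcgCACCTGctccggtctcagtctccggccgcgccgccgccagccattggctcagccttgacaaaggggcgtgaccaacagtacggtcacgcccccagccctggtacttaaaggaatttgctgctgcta
The motifs began 118, 63 and 7 bases before the start in Crb3, 14 in Cldn4, 111 in Krt8 and 126 in Snai1. The capitals in Snai1 lie in its own gene's window, so the count of matched factor genes rests on that single site.

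The genes whose levels were most like those of each factor were found by Pearson correlation of log2(UPM + 10) over the 30 gated groups of the 4 libraries, among 10733 genes with at least 500 UMIs. The 30 points share libraries and depth, and the values are a description. Twist1 was closest to Pdgfrb (0.82), Mrc2 (0.82) and Tmem132c (0.78). Prrx1 was closest to Gm26523 (0.87), Cd248 (0.82) and Twist1 (0.77). Twist2 and Snai1, from different families, were among the closest genes of each other, at 0.83, and both had Saa2 near the top (0.88 and 0.83). Beside these, Twist2 was close to Foxp2 (0.83) and Snai1 to Sparcl1 (0.82).

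Of the others, Prrx2 was closest to H1fx (0.88), Pdcd4 (0.82) and Irx1 (0.81), and Snai2 to 2610318N02Rik (0.80), Plat (0.79) and Pdgfrb (0.76). Zeb1 and Zeb2 led each other's lists at 0.83, followed by Gng2 (0.79) and Myo6 (0.77) for Zeb1 and by Zeb2os (0.76) for Zeb2. The paired genes within a family were less alike elsewhere, at 0.48 for Twist1 and Twist2. None of these values bears on shared control.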

How the data were processed

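Single-cell 3′ RNA libraries of 4 pools of sorted mouse cells were analysed, 1 library per genotype and stage. Deposited by the authors were unnormalized UMI counts for every gene in every cell. Per the submitters' processing notes these were made with Cell Ranger 3.1.0 on mm10, while matrix headers name software version 3.0.2. Every deposited barcode was kept (500 UMIs or more per cell), and no doublet caller was run.

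Counts of shared genes were summed per gated group and divided by the group's UMIs, as UMIs per 1000000 (UPM). Groups under 20 cells were not described. Gates required 3 markers each for the endothelial (6 listed), epithelial (5), neural (6), neural crest (5), BrM (5), aSHF/SoM (6) and pSHF (5) groups, 4 of 6 for cardiomyocytes, all 4 for MLP, and 2 of 5 with no other gate for mesenchyme. Cells passing the cardiomyocyte and aSHF/SoM gates were counted as cardiomyocytes, and cells passing any other 2 or more gates were set aside. The thresholds were set after seeing the cells.

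Levels have Poisson intervals, shares of cells exact binomial intervals, and ratios intervals from the exact conditional binomial distribution, at 95% and covering counting error only. With 1 library per group there was no test. Ratios with both counts at or under the floor of 3 UMIs were not given. A fold over 1.5, a log2 ratio of 0.58, was counted among genes with at least 50 UMIs over both sums. The calculation was first tested on simulated counts.

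The 8 genes, the pathway lists and the comparisons were chosen with earlier results of these data known. All 8 genes are named; of each list the 4 with the most UMIs are named, and for likeness the 3 genes of highest Pearson correlation. A withheld item among these is not reported here. Alternatives were TMM scaling, ratios relative to all other cells, stricter gates, thinning, cell filters (2000 UMIs or more and at most 10% mitochondrial UMIs), counting cells of several gates, leaving out shared barcodes, means over cells, other filters on low counts and other rules for shares of cells. Other gates, thinning, cell filters and barcodes were not tried for ratios of pSHF, neural cells, regional parts of mesenchyme or stages in cKO. Genotype ratios at E8.5 and stage ratios in Ctrl had them only in mesenchyme, BrM and MLP. Python 3.11.15, scipy 1.17.1, pandas 2.3.3, R 4.3.3 and edgeR 4.0.16 (for TMM factors only) were used.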

Additional observations from a re-analysis of the deposited data

Results flagged for a closer look

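For each gene named here the interval of a ratio lay above 0 in one setting and below 0 in another. These are log2 ratios from single libraries, and the difference between them was not tested.

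Between the stages, the cKO to Ctrl ratio of Prrx1 in cardiomyocytes was -1.66 at E8.5 and 0.99 at E9.5. The E8.5 value rests on 53 (Ctrl) and 14 (cKO) UMIs, and the share of thinned cells with a UMI was 22.4 and 20.6%, whose intervals overlap. The cKO to Ctrl ratio of Zeb2 was 0.26 and -0.47 in mesenchyme and 0.14 and -0.17 over all cells, where TMM scaling gave 0.09 at E9.5.

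Between the genotypes, the E9.5 to E8.5 ratio of Twist1 in mesenchyme was 0.33 in Ctrl and -0.22 in cKO. It was 0.40 and -0.32 for Zeb2 in mesenchyme, -1.07 and 0.90 for Twist2 in endothelial cells, and -0.85 and 1.81 for Prrx1 in cardiomyocytes. The cardiomyocyte groups at E8.5 held 52 (Ctrl) and 35 (cKO) cells.

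Between cell groups, the E9.5 cKO to Ctrl ratio was 0.21 in mesenchyme and -0.73 in pSHF for Twist2, -0.42 and 0.32 for Prrx2, and 0.10 and -1.14 for Snai1. For Zeb1 it was 0.11 in mesenchyme and -0.55 in neural cells. At E8.5, Prrx1 was at 0.44 in mesenchyme and -1.66 in cardiomyocytes. The pSHF groups held 30 and 75 cells and the neural groups 26 and 72.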

How the results depend on the processing

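Among the alternative values of single log2 ratios, 609 stayed within their counting interval as reported, 82 left it and 20 turned direction, 15 of these relative to all other cells; the cause was not tested. No paired analysis was possible because each group has 1 library. Of the alternative levels, 492 stayed within their interval and 68 left it. The 60 alternative shares of mesenchyme cells with both genes of a pair all left theirs. Those came from thinning to 5000 UMIs, cells as deposited and at least 2 UMIs per gene, so the printed shares hold only for their own depth and rule. With TMM scaling 12 medians of the pathway lists in mesenchyme moved and 5 did not.

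With TMM scaling, in cKO against Ctrl at E9.5, the median of the 8 genes in mesenchyme was 0.31 and 2 were over 1.5-fold higher, 4 were higher in MLP, and Prrx2 in MLP was at 0.05; the Ctrl stage median in mesenchyme was 0.18.

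With the ratio of all other cells subtracted, E9.5 mesenchyme had a median of -0.53, 0 genes higher and 2 lower, with Twist2 at -0.55, Prrx1 at -1.0, Snai1 at -0.34, Snai2 at -0.40 and Zeb1 at -0.17. BrM had 1 higher and 1 lower, MLP 0 higher, and epithelium 1 lower with Prrx1 at -0.05. In aSHF/SoM Twist1 was at -0.12 and Prrx1 at -0.51, and in cardiomyocytes Prrx1 was at -0.06. At E8.5 mesenchyme had 0 higher, and Prrx2 was at 0.08 in mesenchyme and in MLP. Between stages in Ctrl mesenchyme the median was 0.75, with 6 higher and 0 lower, Prrx2 at 0.70 and Snai2 at 0.07, and in MLP Twist2 was at -0.15 and Prrx2 at 0.24.

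With 1 more marker per gate, E9.5 epithelium had 2 higher and 1 lower with Prrx1 at -0.05, and Snai1 in MLP at E8.5 was at -0.01. Thinned cells gave 1 lower in BrM at E9.5. With cells of several gates counted in each, Prrx2 in MLP at E9.5 was at 0.03, Snai1 in MLP at E8.5 at -0.05 and the Ctrl stage median in MLP -0.25.

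The share of all genes past the fold depended on the filter. With no filter it was 12.4% higher in E9.5 mesenchyme, 14.1% in BrM and 12.4% in MLP, 12.6% higher and 13.4% lower in E8.5 mesenchyme, and 22.9% lower between stages in Ctrl mesenchyme. With at least 200 UMIs it was 2.49% higher in BrM, 2.96% in MLP, and 3.26% higher and 1.55% lower in E8.5 mesenchyme.

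Groups of 26 to 75 cells limit the pSHF, neural and E8.5 BrM values, and counting intervals do not cover variation between embryos.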
